A study of Mus musculus with 5 samples.

Results

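Hepatocytes of mice fasted for 24 h were set against hepatocytes of fed mice, both collected at clock hour 13, so that the libraries differ in hours without food and not in the hour of day. All barcodes that the deposited barcode table assigns to the 24 h library (8558) and to the fed, 0 h library (7208) were used, together 15766 of the 47473 barcodes of the series. The mice were wild-type C57BL/6J males on normal chow, of an age not given in the sources used here. All mice had 3 days of training, with no food for 16 h overnight and food for 8 h by day, and on the day of the experiment had chow with 20% sucrose in the drinking water. The fed mice were killed after 4 h of feeding. For the fasted mice, food and sucrose water were both taken away at clock hour 13, so the 24 h library differs from the fed one by the loss of both. Total hepatocytes were captured with the 10x Genomics 3' chemistry, 1 library per time point, and each library was enriched by hybridization for 64 genes. There was 1 library per side and the number of mice behind it was not given, so no difference has a replicate check, no test was made, and hours without food cannot be told apart from the library. The values compare these 2 libraries.

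The liver stores and makes fuel in the fed state and releases it in fasting. After a meal, insulin and sugar drive glycolysis and the conversion of carbon into fatty acids and triglycerides, under the transcription factors SREBP-1c and ChREBP. In fasting, glucagon and glucocorticoids drive gluconeogenesis, while insulin's brake on genes such as Pck1, G6pc and Igfbp1 is lifted. Hepatocytes also differ by place in the lobule: those near the portal vein carry more gluconeogenic enzymes, and those near the central vein more Cyp2e1 and, in the innermost layer, Glul.

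The promoters of the 3 genes with the highest ratio of 24 h over fed and the 3 with the lowest are shown, because the regulatory sequences of these genes frame the largest differences between the libraries. They come from RefSeq on GRCm38.p6, up to 250 bases before the start site, 5′ to 3′ on the gene's strand, and end where the GENCODE gene begins. Capitals mark matches, on either strand, to 6 motifs searched: CACGTG (E-box), TCACNCCAC (sterol element), CCAAT (the element bound by NF-Y), CAAAACA (core of the insulin response element), GTAAACA (forkhead element) and ACGTCA (core of the cAMP element). Higher at 24 h were Igfbp1 (chr11:7197537-7197781, plus strand), Pck1 (chr2:173152823-173153047, plus strand) and Cyp2e1 (chr7:140763569-140763738, plus strand).
Igfbp1: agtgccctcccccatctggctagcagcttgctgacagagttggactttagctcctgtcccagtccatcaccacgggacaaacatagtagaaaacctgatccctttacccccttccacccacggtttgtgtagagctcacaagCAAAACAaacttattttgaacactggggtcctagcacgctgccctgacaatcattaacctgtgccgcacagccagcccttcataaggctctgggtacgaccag
Pck1: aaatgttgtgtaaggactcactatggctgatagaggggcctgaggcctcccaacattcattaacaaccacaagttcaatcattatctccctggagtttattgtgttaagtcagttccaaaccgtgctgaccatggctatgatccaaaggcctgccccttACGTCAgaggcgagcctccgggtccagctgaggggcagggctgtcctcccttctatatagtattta
Cyp2e1: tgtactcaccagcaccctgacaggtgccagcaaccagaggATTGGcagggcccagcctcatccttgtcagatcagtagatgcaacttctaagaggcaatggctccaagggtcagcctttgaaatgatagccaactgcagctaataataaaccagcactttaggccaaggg
Lower at 24 h were Fasn (chr11:120824548-120824797, minus strand), Elovl6 (chr3:129532136-129532354, plus strand) and Srebf1 (chr11:60222582-60222831, minus strand).
Fasn: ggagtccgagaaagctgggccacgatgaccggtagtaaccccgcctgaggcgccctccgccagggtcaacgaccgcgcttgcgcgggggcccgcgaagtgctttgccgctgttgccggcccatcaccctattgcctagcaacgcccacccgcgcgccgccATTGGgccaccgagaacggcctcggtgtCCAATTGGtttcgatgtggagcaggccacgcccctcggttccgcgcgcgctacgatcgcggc
Elovl6: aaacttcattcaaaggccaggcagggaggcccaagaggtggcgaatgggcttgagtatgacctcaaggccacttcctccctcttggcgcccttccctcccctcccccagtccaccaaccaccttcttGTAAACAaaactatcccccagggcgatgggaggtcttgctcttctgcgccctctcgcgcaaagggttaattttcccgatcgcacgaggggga
Srebf1: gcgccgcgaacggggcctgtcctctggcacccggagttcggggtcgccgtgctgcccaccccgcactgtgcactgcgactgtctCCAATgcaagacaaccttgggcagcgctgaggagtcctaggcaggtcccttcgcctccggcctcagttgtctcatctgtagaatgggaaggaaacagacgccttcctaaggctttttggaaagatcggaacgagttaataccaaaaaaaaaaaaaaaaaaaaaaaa

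Distances are counted from the RefSeq start site. For Igfbp1, Pck1, Cyp2e1 and Elovl6 it lies 5, 25, 80 and 31 bases inside the GENCODE gene, past the end of the bases printed. The Igfbp1 window held CAAAACA 108 bases before the start site, and the Pck1 window ACGTCA 91 bases before it. CAAAACA occurred in 5.56% of 32851 mouse promoter windows of the same length and ACGTCA in 6.47%. The Fasn window held 3 CCAAT matches, 90, 62 and 59 bases before the start site, of which the last 2 overlap as the palindrome CCAATTGG. Cyp2e1 had CCAAT on the opposite strand 210 bases before its start site (and another 68 bases before it, outside the bases printed), and Srebf1 had 1 match 166 bases before. CCAAT occurred in 33.8% of all windows. Elovl6 had GTAAACA 123 bases before its start site, a motif present in 3.17% of windows. CACGTG (6.02% of windows) and TCACNCCAC (1.05%) were found in none of the 6 windows, which says only that these letters are not there. Srebf1 has 3 such windows in the table, and counts from the 3' end do not tell which start site was used.

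Levels are given as CPM, the UMIs of a gene per 1000000 UMIs of the 64 genes in that library. The fed library held 7549765 panel UMIs (median 1033 per barcode) and the 24 h library 10432123 (median 1202.5). Albumin (Alb), the main secreted plasma protein, took 69.4% of the fed UMIs and 71.8% of those at 24 h. Its log2 ratio of 24 h over fed was only 0.048, but because of its size, leaving Alb out of the denominator adds 0.116 to the log2 ratio of every other gene, and counting UMIs per barcode adds 0.219. The 2 libraries shared 11 barcode sequences, and without them no gene's ratio moved beyond its counting interval. Intervals in the text are 95% and cover counting error only. A minimum of 100 UMIs, summed over the fed and 24 h libraries, left 56 of the 64 genes to compare. The other 8 (Gpat2, Elovl7, Hsd3b1, Fgf15, Elovl4, Igfbp3, Pdgfra and Pdgfrb) had at most 30 UMIs in either library. Fgf15, an intestinal hormone gene, had 0 UMIs in both, which allows at most 0.397 CPM in the fed and 0.288 CPM in the 24 h library (3 counts of the total). The 8, 16 and 30 h libraries, set beside these, were collected at clock hours 21, 5 and 19. Hours without food cannot be told apart from hour of day in them. The 8 h library was shallow, with a median of 219 UMIs and 75.1% of barcodes under 500. It held 220 CPM of 6 genes that mark other liver cells, against 76.2 fed and 43.2 at 24 h.

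Over 2-fold higher in CPM at 24 h were 5 of the 56 genes (8.93%), and over 2-fold lower were 13 (23.2%). The 5 were Igfbp1, Pck1, Cyp2e1, Cyp7a1 and Igfbp2. The lower genes included Fasn, Elovl6, Srebf1, Acly, Acaca, Pklr, Ptprc, Gpam, Mlxipl, Actb, Fgf21 and Cdh5. The differences were unequal in size: 1 gene was over 4-fold higher and 7 were over 4-fold lower, of which 5 were over 8-fold and 2 over 16-fold lower. The middle of the panel moved little, with 15 genes within 0.25 of 0 on the log2 scale and a median log2 ratio of -0.12, or -0.030 without Alb. Without Alb, Sds also passed 2-fold, which made 6 higher and 13 lower of 55, and Acaca (-2.98) fell just short of 8-fold lower.

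**Figure D1:**
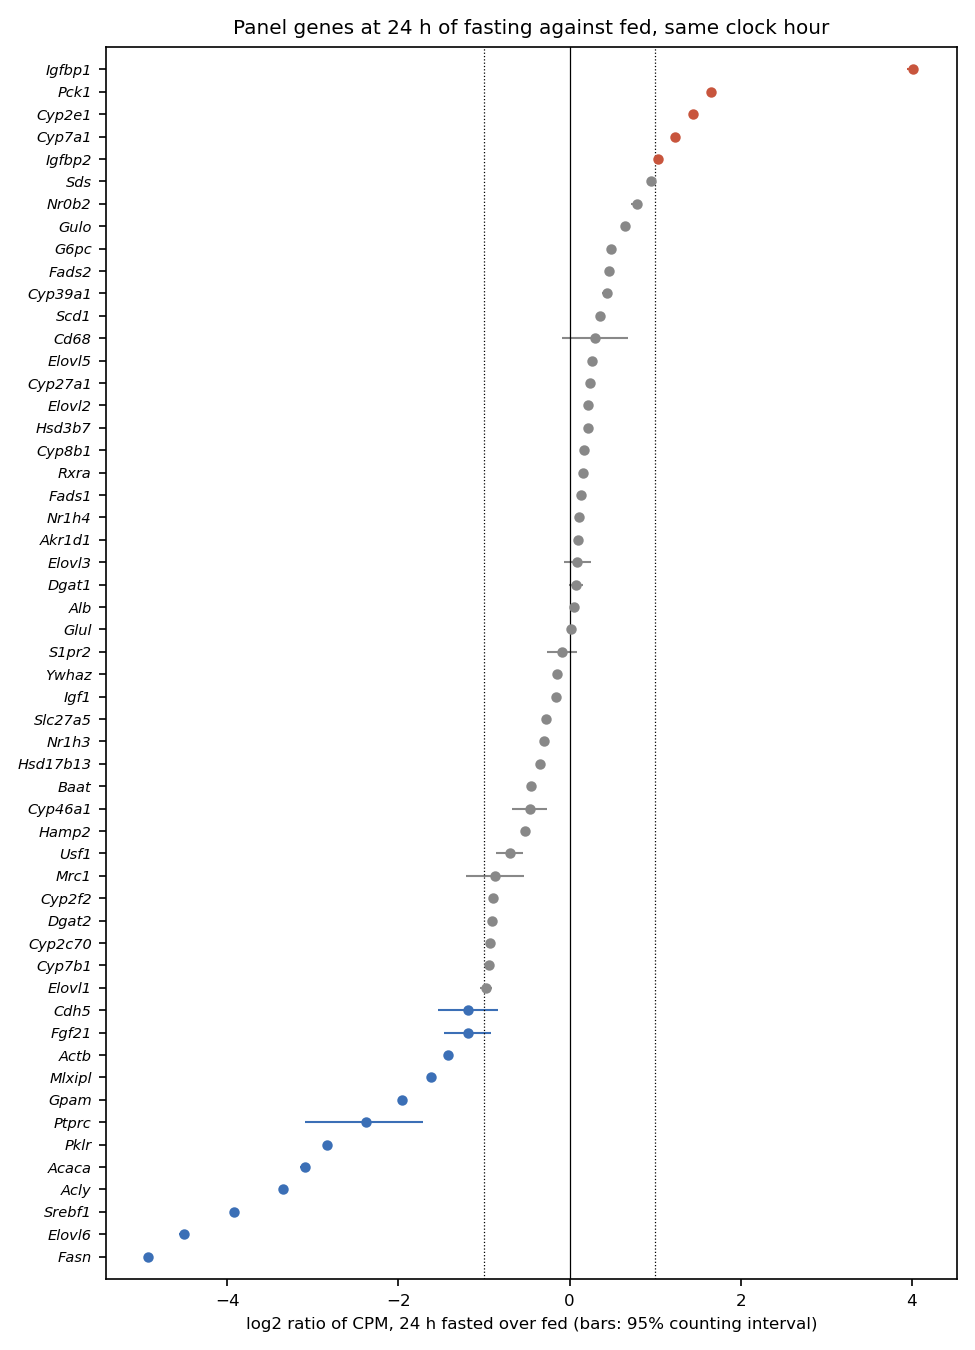
Each point is the log2 ratio of CPM, 24 h fasted over fed, of 1 of 54 panel genes, ordered by ratio, with its 95% counting interval as a bar. Dotted lines mark 2-fold; red points are over 2-fold higher (Igfbp1 at 4.01 the highest) and blue points over 2-fold lower (Fasn at -4.93 the lowest).

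Genes of the insulin-like growth factor (IGF) axis held the highest ratio of the panel. Igfbp1 (chr11:7197782-7202546, GRCm38) encodes a secreted binding protein that limits free IGF1 and is held down by insulin. It had 1855 UMIs in the fed library (246 CPM) and 41227 at 24 h (3952 CPM), a log2 ratio of 4.01 (3.94 to 4.08) or 16.1-fold. Igfbp1 was at 5841 CPM at 8 h, 1459 CPM at 16 h and 2432 CPM at 30 h, so 8 h was its highest library. Igfbp2, another liver-derived binding protein, stood at 3961 CPM in the fed and 8094 CPM in the 24 h library, a log2 ratio of 1.03 (1.01 to 1.05). The other fasted libraries had 3207 CPM (8 h), 5768 CPM (16 h) and 9669 CPM (30 h). Both binding proteins were thus higher at 24 h than in the fed library, and Igfbp2 was higher in all libraries from 16 h on. Igf1 itself, the growth factor, was at 11550 CPM fed and 10347 CPM at 24 h, a log2 ratio of -0.16 (-0.17 to -0.15) that turned positive by UMIs per barcode (0.060) and with both Alb and Scd1 left out (0.16). With the rare Igfbp3, the IGF genes made up 5.16% of the UMIs outside Alb in the fed library and 7.94% at 24 h.

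The panel held 3 of 15 listed genes of gluconeogenesis and amino acid breakdown, and all 3 were higher at 24 h, 1 of them past 2-fold. Pck1 (chr2:173153048-173159273), which makes phosphoenolpyruvate from oxaloacetate, had 66224 UMIs fed (8772 CPM) and 288540 at 24 h (27659 CPM), a log2 ratio of 1.66 (1.64 to 1.67). Sds, serine dehydratase, which turns serine into pyruvate, was at 1746 CPM fed and 3379 CPM at 24 h, a log2 ratio of 0.95 (0.92 to 0.98). G6pc, the catalytic subunit of the phosphatase that releases free glucose, was at 3908 and 5482 CPM, a log2 ratio of 0.49 (0.47 to 0.51). Together the 3 took 4.72% of the UMIs outside Alb in the fed library and 12.9% at 24 h. None of the 3 reached its highest level of the series at 24 h: each ranked 3 or 4 of the 5 libraries there, and last in the fed library. On the opposing side of glucose use, Pklr, the pyruvate kinase that pulls against Pck1, had 21173 UMIs fed (2804 CPM) and 4106 at 24 h (394 CPM), a log2 ratio of -2.83 (-2.88 to -2.78). The 8 h library still had 2773 CPM, the 16 h library 667 CPM and the 30 h library 254 CPM.

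In the synthesis of fatty acids, all 3 measured enzymes of 8 listed genes were over 8-fold lower in CPM at 24 h. Acly, which splits citrate into acetyl-CoA in the cytosol, had 156980 UMIs fed (20793 CPM) and 21264 at 24 h (2038 CPM), a log2 ratio of -3.35 (-3.37 to -3.33). Acaca, which carboxylates acetyl-CoA to malonyl-CoA, had 23594 UMIs fed (3125 CPM) and 3816 at 24 h (366 CPM), a log2 ratio of -3.09 (-3.14 to -3.05). Without Alb the Acaca ratio was -2.98, just short of 8-fold. The libraries at hours in between had 1477 CPM (8 h) and 568 CPM (16 h), and the 30 h library 306 CPM. Fasn (chr11:120805846-120824547), the synthase that builds palmitate, had 205371 UMIs fed (27202 CPM) and 9304 at 24 h (892 CPM), a log2 ratio of -4.93 (-4.96 to -4.90) or 30.5-fold lower. As a sum, the 3 took 16.7% of the UMIs outside Alb in the fed library and 1.17% at 24 h.

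All 4 measured transcription factor genes of lipid synthesis were lower at 24 h, 2 of them past 2-fold. Over the panel, 28 of 56 genes (50%) had intervals below 0, 23 (41.1%) above, and 5 spanned 0. Past 2-fold lower were 13 of the 56 (23.2%). Srebf1 (chr11:60199089-60222581), which encodes SREBP-1, had 34264 UMIs fed (4538 CPM) and 3133 at 24 h (300.3 CPM), a log2 ratio of -3.92 (-3.97 to -3.86). Mlxipl, which encodes the sugar-sensing factor ChREBP, was at 2026 CPM fed and 657 CPM at 24 h, a log2 ratio of -1.62 (-1.67 to -1.58). Its levels at 8, 16 and 30 h were 1605, 881 and 619 CPM. Usf1 had a log2 ratio of -0.70 (-0.86 to -0.54). Nr1h3, which encodes the oxysterol receptor LXRα, had -0.30 (-0.35 to -0.25), or 0.019 with both Alb and Scd1 left out. Exons of Srebf1, Usf1 and Nr1h3 are overlapped by Mir6922, Tstd1 and Gm13783, respectively, on the strand that is counted, and their UMIs can include reads of these.

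Of 8 measured elongases and desaturases, which lengthen or unsaturate fatty acids, 5 had intervals above 0 and 2 below, with a median log2 ratio of 0.18, against 41.1% above and 50% below over the panel. Elovl6 (chr3:129532355-129638495), which elongates palmitate to stearate, stood apart with 59724 UMIs fed (7911 CPM) and 3624 at 24 h (347 CPM), a log2 ratio of -4.51 (-4.56 to -4.46) or 22.8-fold lower. Elovl1, an elongase of very long saturated chains, had a log2 ratio of -0.98 (-1.04 to -0.91). Fads2, the Δ6-desaturase of polyunsaturated fatty acids, was at 4191 CPM fed and 5763 CPM at 24 h, a log2 ratio of 0.46 (0.44 to 0.48). It was lower at 8 h (3114 CPM) and 16 h (3698 CPM), and 24 h was its highest value of the 5 libraries. Fads1 (0.14), Elovl2 (0.22) and Elovl5 (0.27), of the same polyunsaturated pathway, were each slightly higher. Scd1, the Δ9-desaturase that makes oleate, had 580985 UMIs fed (76954 CPM) and 1030541 at 24 h (98785 CPM), a log2 ratio of 0.36 (0.356 to 0.365). As a share of the UMIs outside Alb it went from 25.2% to 35.0%. Elovl3 was at 78.3 CPM fed and 83.5 CPM at 24 h (log2 ratio 0.093, -0.059 to 0.25), a difference within counting error, although it was at 843 to 3961 CPM in the 3 libraries collected at other hours. Without Alb the Elovl3 ratio was 0.21 (0.057 to 0.36), above 0.

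In triglyceride synthesis, Gpam, the acyltransferase of the initial step, had 56275 UMIs fed (7454 CPM) and 20052 at 24 h (1922 CPM), a log2 ratio of -1.96 (-1.98 to -1.93). Its levels at 8, 16 and 30 h were 2368, 2517 and 1647 CPM, so all fasted libraries lay well below the fed one. Dgat2, of the final step, had -0.90 (-0.92 to -0.89), whereas Dgat1, its counterpart of another protein family, was within counting error (0.076, -0.0081 to 0.16). Without Alb the Dgat1 ratio was 0.19 (0.11 to 0.28), above 0. Fgf21, a hormone usually described as a fasting signal of the liver, had few UMIs, 297 fed and 180 at 24 h, and was lower at 24 h by a log2 ratio of -1.19 (-1.46 to -0.92). It was at 39.3 CPM fed and 17.3 CPM at 24 h, and the other fasted libraries had 49.3 CPM (8 h), 83.3 CPM (16 h) and 115 CPM (30 h). The 24 h library was thus the lowest of the 5.

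**Figure D2:**
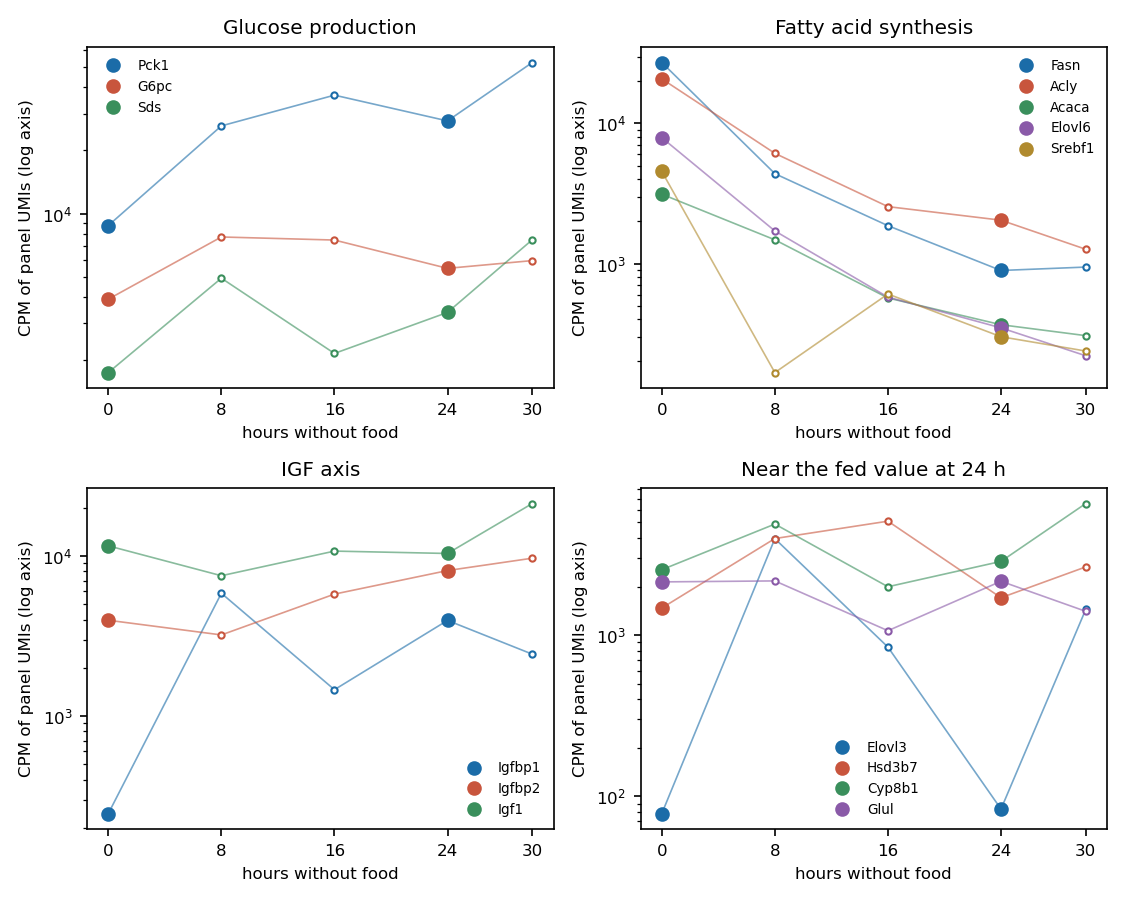
CPM (log axis) against hours without food in the 5 libraries, with the fed and 24 h libraries, which share clock hour 13, as large filled points and the others as small open ones. Pck1, G6pc and Sds were higher and the fatty acid synthesis genes lower at 24 h than fed, while Elovl3, Hsd3b7, Cyp8b1 and Glul were within 0.25 of their fed value on the log2 scale.

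Genes of bile acid synthesis differed by step. Cyp7a1, the rate-limiting enzyme of the classic pathway, had 5270 UMIs fed (698 CPM) and 17129 at 24 h (1642 CPM), a log2 ratio of 1.23 (1.19 to 1.28). It had 1173 CPM in the 8 h, 247 CPM in the 16 h and 645 CPM in the 30 h library, so 24 h was its highest library and the fed one lay in between. Cyp8b1, which sets the share of cholic acid, was at 2543 and 2863 CPM, a log2 ratio of 0.17 (0.14 to 0.20). In the alternative pathway, Cyp27a1 (0.24) and Cyp39a1 (0.44) were higher, and Cyp7b1 (-0.94, -0.98 to -0.90) and the sparsely counted Cyp46a1 (-0.46) were lower. Of the 5 late enzymes, Hsd3b7 (0.21) and Akr1d1 (0.10), which act on the sterol ring, were slightly higher. Slc27a5 (-0.27, but 0.046 with both Alb and Scd1 left out) and Baat (-0.45), which activate and conjugate bile acids, were lower, as was Cyp2c70, which makes muricholic acids in mice, at -0.93 (-0.95 to -0.90). Gm49388 overlaps an exon of Hsd3b7. Of 3 genes of bile acid sensing, Nr0b2, which encodes the repressor SHP, was at 374 CPM fed and 645 CPM at 24 h, a log2 ratio of 0.78 (0.72 to 0.85). The bile acid receptor gene Nr1h4 was near its fed level (0.11), as was S1pr2 (-0.089, -0.27 to 0.091, and 0.027 without Alb). The gene for the rate-limiting enzyme and the gene for a repressor of it were thus both higher at 24 h.

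Of the markers of lobule position, 2 of 3 pericentral genes had intervals above 0, and 2 of 3 periportal genes had intervals below 0. Over the panel, 41.1% of genes had intervals above 0 and 50% below. Cyp2e1 (chr7:140763739-140774987), a pericentral enzyme of drug and alcohol metabolism, had 83198 UMIs fed (11020 CPM) and 313315 at 24 h (30034 CPM), a log2 ratio of 1.45 (1.44 to 1.46). Gulo, a pericentral gene of vitamin C synthesis, was at 1072 and 1675 CPM, a log2 ratio of 0.64 (0.60 to 0.68). Glul, glutamine synthetase of the innermost pericentral layer, was at 2137 CPM fed and 2156 CPM at 24 h, a log2 ratio of 0.013 (-0.016 to 0.042). Without Alb it was 0.129 (0.0998 to 0.158), so that all 3 pericentral genes were then higher. Mir8114 overlaps an exon of Glul. Of the periportal genes, Cyp2f2 was at 19296 CPM fed and 10422 CPM at 24 h, a log2 ratio of -0.89 (-0.90 to -0.88), and Hsd17b13, a lipid droplet protein, had -0.35 (-0.37 to -0.33), while Alb, also on that list, had 0.048. The summed share of the 3 pericentral genes outside Alb was 4.65% fed and 12.0% at 24 h. Whether more barcodes came from pericentral cells at 24 h, or each cell held more of these RNAs, cannot be told apart from the sums.

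Actb, the cytoskeletal actin often used as a control, had 152096 UMIs fed (20146 CPM) and 78240 at 24 h (7500 CPM), a log2 ratio of -1.43 (-1.44 to -1.41), and 24 h was its lowest library. Genes that mark other liver cells were also lower in sum. The 6 of them (Cdh5, Mrc1, Cd68, Ptprc, Pdgfra and Pdgfrb) held 575 UMIs in the fed library (76.2 CPM, 70.1 to 82.6) and 451 at 24 h (43.2 CPM, 39.3 to 47.4). Ptprc, the leukocyte gene, had 90 and 24 UMIs, a log2 ratio of -2.37 (-3.09 to -1.71), and the endothelial gene Cdh5 186 and 113 UMIs (-1.19, -1.54 to -0.84). Of the macrophage genes, Mrc1 was at -0.87 (-1.21 to -0.54), and Cd68 was within counting error at 0.29 (-0.091 to 0.68). Cd68 was at 0.41 (0.025 to 0.80) without Alb, and at -0.53 as the mean over barcodes of CPM per barcode. Barcodes with 3 or more of these UMIs numbered 36 and 17. In the 6915 fed and 8214 24 h barcodes without any UMI of the 6 genes, the Actb ratio was -1.42. Only 293 fed and 344 24 h barcodes were left out by this, so the ratio had little room to move. The part of other cells in the Actb difference was not tested. Ywhaz, a 14-3-3 gene active in most cells, had a log2 ratio of -0.15 that turned positive by UMIs per barcode (0.073) and with both Alb and Scd1 left out (0.17). Hamp2, a hepcidin gene, had -0.52 (-0.57 to -0.47).

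The next question was whether all barcodes took part. Each barcode was thinned at random to 500 UMIs, which left out 1132 fed barcodes and 1293 at 24 h and kept 6076 and 7265. At this depth Fasn had a median of 13 UMIs in the fed barcodes, with 4 at the 5th and 25 at the 95th percentile, and at 24 h a median of 0 and 2 at the 95th percentile. The distributions hardly touched: 99.6% of 24 h barcodes lay below the fed 5th percentile, and in 0.0835% of all pairs of 1 fed and 1 24 h barcode the 24 h one was higher, with 0.238% of pairs tied. Acly had a median of 10 fed and 1 at 24 h, with 73.9% of 24 h barcodes below the fed 5th percentile. In the other genes with a fed 5th percentile above 0, this share ran from 0.206% (Scd1) to 18.4% (Actb). Elovl6 and Srebf1 had a fed 5th percentile of 0, so no barcode could lie below it. Over pairs, the 24 h barcode was the lower in 91.8% for Elovl6 and 83.8% for Srebf1. Elovl6 was found in 94.2% of fed and 15.9% of 24 h barcodes, and Srebf1 in 87.2% and 13.7%. In unthinned barcodes the Fasn share was 99.9% fed and 58.4% at 24 h, against 99.9% and 34.6% after thinning.

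Pck1 and Igfbp1 were higher at 24 h in most pairs of barcodes. Pck1 had a median of 3 UMIs of 500 in fed barcodes (5th to 95th percentile 0 to 13) and 13 at 24 h (4 to 23), and the 24 h barcode was the higher in 88.7% of pairs, with 2.34% tied. A Pck1 UMI was found in 88.0% of fed (87.1% to 88.8%) and 99.9% of 24 h barcodes (unthinned, 92.8% and 99.8%). For Igfbp1 it was the higher in 77.4%, with 20.1% tied. Igfbp1 was found in 10.1% of fed (9.34% to 10.9%) and 80.4% of 24 h barcodes (79.5% to 81.3%; unthinned, 17.1% and 91.7%). Among barcodes with 3 or more UMIs of other cell types, only 8 fed and 6 at 24 h were deep enough to thin. Igfbp1 was found in 0 of the 8 (which allows a share of up to 36.9%) and in 6 of the 6. Fasn was found in 8 of the 8 and 0 of the 6 (up to 45.9%). These few barcodes hold hepatocyte RNA and give no background level. Scd1 had a median of 36 fed and 47 at 24 h, and the 24 h barcode was higher in 68.3% of pairs, with 1.41% tied.

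**Figure D3:**
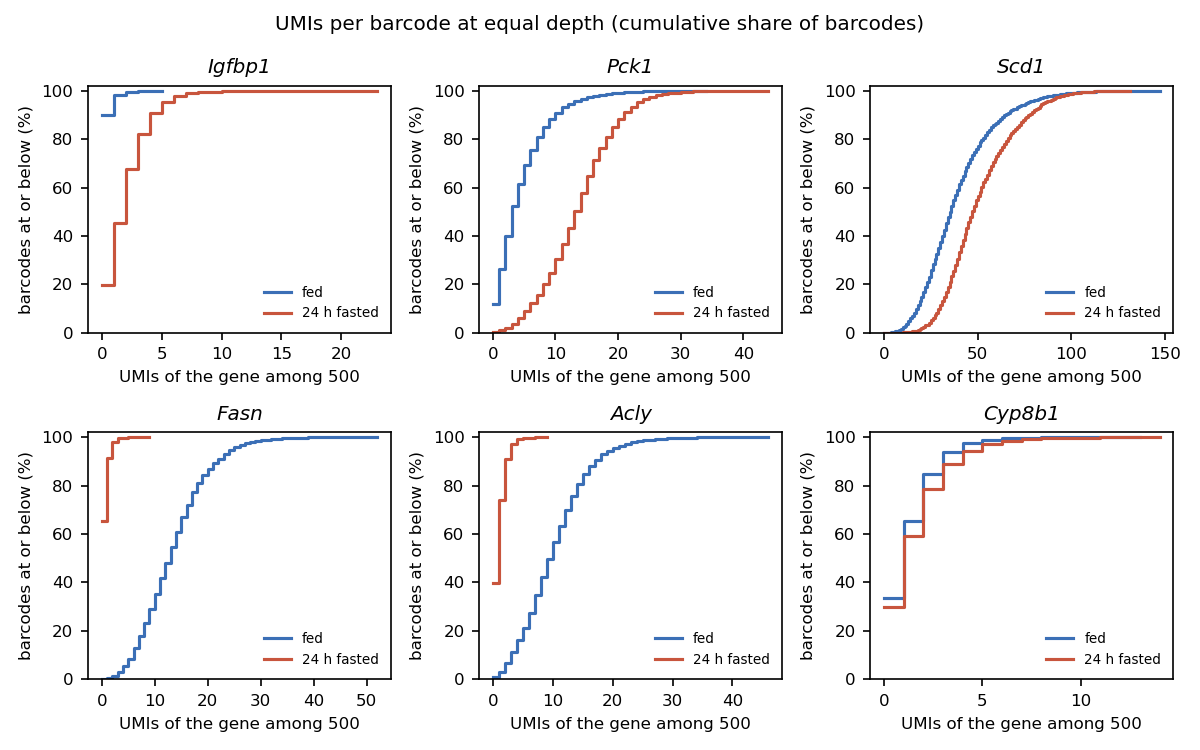
Cumulative share of barcodes (%) by UMIs of a gene among 500 UMIs, for the 6076 fed (blue) and 7265 24 h (red) barcodes thinned to that depth. The Fasn and Acly curves lie far apart, the Igfbp1 and Pck1 curves are shifted to the right at 24 h with some overlap, and those of Cyp8b1 nearly coincide.

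The spread between barcodes also differed. It is given as the coefficient of variation (CV) beyond counting, the square root of variance minus mean, divided by the mean, at 500 UMIs. For Pck1 it was 0.82 in the fed library and 0.33 at 24 h, and for G6pc 0.67 and 0.35, so that both genes were more even between barcodes at 24 h. Scd1 had 0.47 and 0.34. Igf1 was even in both, at 0.25 and 0.25. Cyp8b1 was less even at 24 h, at 0.52 fed and 0.67 at 24 h, and so was Glul, at 3.30 and 4.72. Of 21 genes with a mean of 1 UMI or more in both libraries the CV was lower at 24 h in 13 and higher in 8.

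Glul had nearly the same summed level in the 2 libraries (log2 ratio 0.013, or 0.13 without Alb) but was spread over barcodes differently. Barcodes with 20 or more Glul UMIs of 500, a limit chosen after the values were seen, numbered 12 of 6076 in the fed library (0.197%, Clopper-Pearson 0.102% to 0.345%) and 68 of 7265 at 24 h (0.936%, 0.728% to 1.19%). They held 13.2% of the Glul UMIs in the fed library and 41.0% at 24 h. In the remaining barcodes the mean was 0.957 UMIs fed and 0.744 at 24 h. With a limit of 10 the numbers were 16 and 99 barcodes, and with a limit of 50 they were 9 and 31. A Glul UMI was found in 56.4% of fed and 44.8% of 24 h barcodes (unthinned, 74.7% and 69.8%). So among the thinned barcodes more were rich in Glul at 24 h and fewer held any. The sum over all barcodes hardly differed, while in the thinned ones the mean was 1.10 UMIs fed and 1.25 at 24 h. Barcodes under 500 UMIs are not in the thinned values. Thinning also gives each kept barcode the same weight, whereas in the sum deeper barcodes count for more. How many pericentral cells each isolation recovered was not tested.

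Position in the lobule was approached with a score, the log2 ratio of Cyp2e1 to Cyp2f2 per barcode, by which the barcodes of each library were cut into 5 equal bins, from bin 1 (most Cyp2f2) to bin 5 (most Cyp2e1). A bin is a range of the score and not a cell type, and both score genes differ between the libraries, so the limits moved: bin 5 began at -0.29 in the fed and at 3.84 in the 24 h library. Of fed barcodes 17.8%, and of 24 h barcodes 14.9%, lay within 0.1 of a limit. Median depth was 603 to 1255 UMIs in the fed and 744 to 1647.5 in the 24 h bins, and Alb ran from 72.5% of UMIs in fed bin 1 to 53.2% in fed bin 5, and from 77.9% to 53.5% at 24 h. Bin 5 held 254 of the 575 fed UMIs of the 6 genes of other liver cells, and 101 of the 451 at 24 h. Of 53 genes outside the score with 10 or more UMIs in the sums compared, 35 had the same sign of difference in all 5 bins.

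Pck1 was higher at 24 h in every bin, with log2 ratios of 1.50, 1.62, 1.62, 1.76 and 1.94 from bin 1 to bin 5. Without Alb they were 1.82, 1.87, 1.78, 1.53 and 1.95, with bin 4 the lowest, so the order of the bins depended on the denominator. Its ratio in bin 5 exceeded that in bin 1 by 0.44 (0.40 to 0.49), or by 0.14 (0.090 to 0.18) without Alb. G6pc gave the same difference of 0.44 (0.13 without Alb), from 0.40 in bin 1 to 0.85 in bin 5, and without Alb it too was lowest in bin 4, at 0.32. Sds was between 0.86 and 1.13 in all bins in CPM, and between 0.68 and 1.20 without Alb. Fasn lay between -5.19 and -4.47 and Elovl6 between -4.57 and -4.33, so both were far lower at 24 h in every bin. Acly was between -3.28 and -3.26 in bins 1 to 4 and at -3.83 in bin 5. Without Alb it went from -2.96 in bin 1 through -3.10 in bin 3 and -3.51 in bin 4 to -3.82 in bin 5. Igfbp1 was at 3.76 in bin 1, 4.52 in bin 4 and 4.03 in bin 5, and Actb between -1.57 and -1.08.

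Pericentral and bile acid genes were uneven along the score. Glul was lower at 24 h in bins 1 to 3, with log2 ratios of -0.90, -0.78 and -0.63, and higher in bins 4 (0.31) and 5 (0.70). Without Alb, bin 4 was within counting error, at 0.071 (-0.0028 to 0.14). In bin 5 it had 5025 CPM fed and 8146 CPM at 24 h, and in bin 1 1605 and 862 CPM. Cyp8b1 was at -0.28 in bin 1 and 0.66 in bin 5. Without Alb all 5 Cyp8b1 ratios were positive, from 0.036 to 0.67, but that of bin 1 was within counting error (-0.029 to 0.10). Cyp7a1 had its largest difference in bin 4, at 2.88, and its smallest in bin 5, at 0.61. Gulo was alike, at 2.39 in bin 4 and 0.11 in bin 5, where it had 6251 CPM fed and 6758 CPM at 24 h. For these 2 genes bin 4 differed most and the Cyp2e1-rich end least, while the Glul ratio was highest at that end. Bin 4 covered scores of -2.41 to -0.29 in the fed and 0.85 to 3.84 in the 24 h library, which do not overlap. The ranges of bin 2 (-3.69 to -3.05 fed, -1.03 to -0.44 at 24 h) and bin 3 (-3.05 to -2.41 and -0.43 to 0.85) do not overlap either. Ratios in bins 2, 3 and 4 thus set fed barcodes against 24 h barcodes of higher score. In bins 1 and 5 the ranges overlap only in part. The difference at equal score was not tested in any bin.

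**Figure D4:**
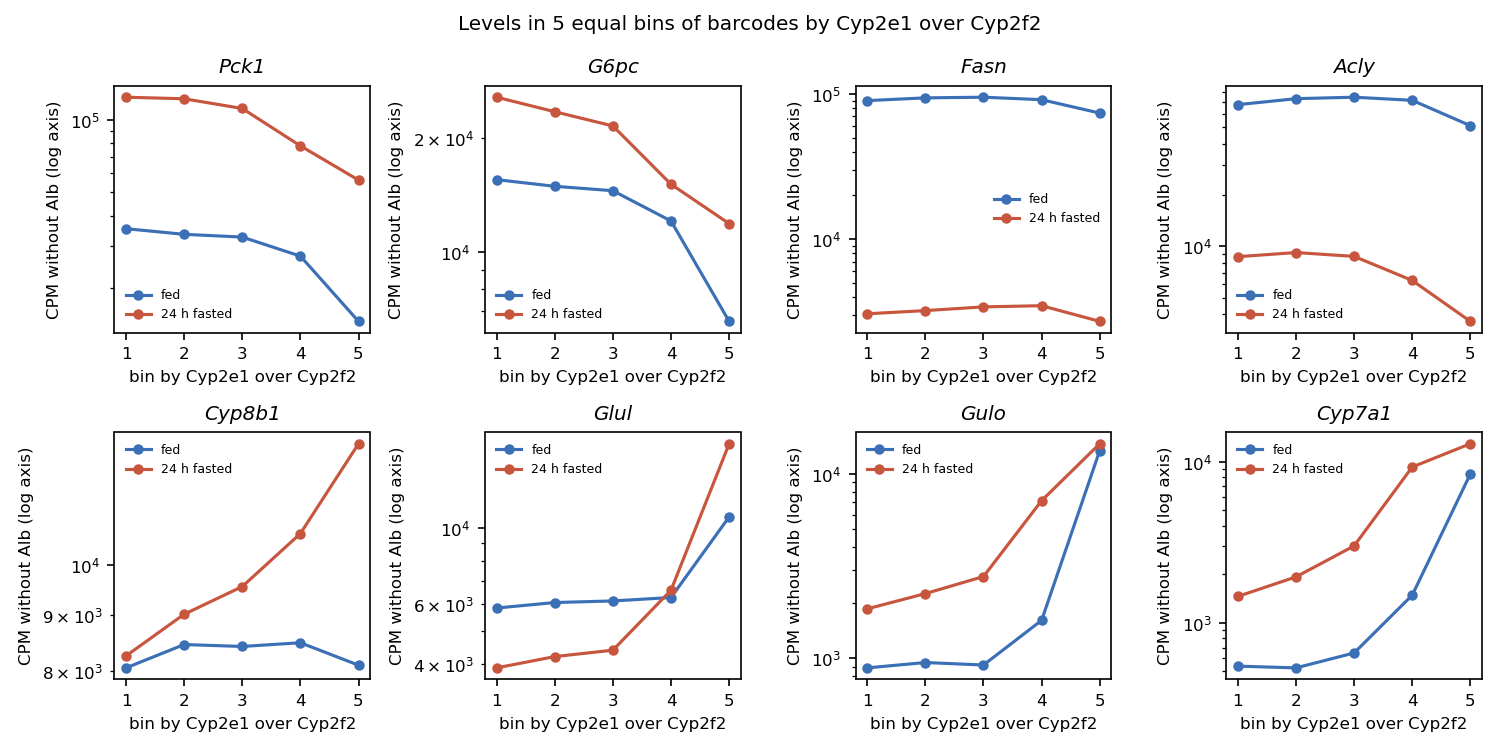
Level without Alb in the denominator (CPM, log axis) of 8 genes in 5 equal bins of barcodes, from most Cyp2f2 (bin 1) to most Cyp2e1 (bin 5), in the fed (blue) and 24 h (red) libraries. Pck1 and G6pc were above and Fasn and Acly below the fed line in each bin, the Glul lines cross, and Gulo and Cyp7a1 differ most in bin 4. The score ranges of bins 2, 3 and 4 do not overlap between the libraries.

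The 24 h library can be placed among the 5 by the order of each gene's CPM. The 8, 16 and 30 h libraries also differ from it in clock hour, so this is not an order by fasting alone. Of the 56 genes it was the highest in 5 (Alb, Cyp7a1, Fads1, Fads2 and Scd1) and the lowest in 9 (Fasn, Actb, Cyp2f2, Baat, Cyp7b1, Fgf21, Hsd17b13, Usf1 and Ywhaz). The fed library was the highest in 15 and the lowest in 12. The 24 h and fed libraries were thus the extremes for Fasn, Actb and Cyp2f2, with the fed one at the top, and for Alb, with the fed one at the bottom. Of the 15 genes within 0.25 of the fed value at 24 h, Elovl3, Hsd3b7, Cyp8b1 and Glul differed from the fed library by over 2-fold in at least 1 of the other libraries. The other 11 did not.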

How the data were processed

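The deposited data are 1 matrix of UMI counts, 64 panel genes by 47473 barcodes, not normalized. It was made by the authors with Cell Ranger 6.0.1 and genome build mm10, per the submitters' processing notes. The rule that separated cells from empty droplets and any equalising of depth are not stated in the labels. Another deposited table gives each barcode's library. No barcode was filtered and no doublet caller was run, since 64 genes give it too little to work on.

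Counts were summed per library and divided by all panel UMIs (CPM). Genes with 100 or more UMIs in the fed and 24 h libraries together were compared, and a gene was called past 2-fold in CPM. Intervals are exact at 95%: Poisson for CPM, conditional binomial for ratios and Clopper-Pearson for shares; those of a difference of 2 log2 ratios are normal, from the 4 counts. All cover counting error only. Named genes are all panel genes on textbook lists and any other past 2-fold, the 10 highest, the 10 lowest and 8 set genes in most detail; 2 genes that entered the counts and medians are not reported here. The members and lists were chosen with earlier results of these data known.

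Barcodes were thinned to 500 UMIs (200 as an alternative, seed 1), leaving out shallower ones. The score was log2 of (Cyp2e1 + 1) over (Cyp2f2 + 1) in UMIs per 1000 panel UMIs. All 64 gene identifiers matched GENCODE M21 (GRCm38). Python 3.11.15, numpy 2.4.6 and scipy 1.17.1 were used. The ratios, their intervals and the 2-fold call were tested on simulated Poisson counts per library. The thinning, the score bins and the motif search were not tested in this way. Alternatives were other denominators, a mean over barcodes, barcode filters, a minimum of 20 UMIs and, chosen after seeing the data, leaving out barcodes with UMIs of other cell types or with sequences found in both libraries.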

Additional observations from a re-analysis of the deposited data

Results flagged for a closer look

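For Glul the difference between the fed and 24 h libraries had opposite signs at the 2 ends of the Cyp2e1 to Cyp2f2 score. The log2 ratio of 24 h over fed was -0.90 in the bin richest in Cyp2f2 and 0.70 in the bin richest in Cyp2e1, a gap of 1.59 (1.50 to 1.69), or 1.29 (1.19 to 1.38) without Alb. The limits of the bins differ between the libraries. With 1 library on each side the difference was not tested.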

How the results depend on the processing

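Over the 10 alternatives to CPM of all panel UMIs, 5 to 7 genes were over 2-fold higher and 10 to 15 over 2-fold lower. The median log2 ratio, -0.12, changed sign with both Alb and Scd1 left out of the denominator (0.17), by UMIs per barcode (0.10) and by median-of-ratios scaling (0.028), each of which adds a constant to all genes. For the same reason Nr1h3 (0.019), Slc27a5 (0.046), Igf1 (0.16) and Ywhaz (0.17) changed sign without Alb and Scd1, and Igf1 (0.060) and Ywhaz (0.073) by UMIs per barcode. S1pr2 (-0.089), whose interval spans 0, changed sign without Alb (0.027), without Alb and Scd1 (0.23), by UMIs per barcode (0.13) and by median-of-ratios scaling (0.057). Cd68 (0.29), within counting error with Alb in the denominator but not without it, was at -0.53 by the mean over barcodes of CPM per barcode. Past 2-fold in every setting that compared them were Igfbp1, Pck1, Cyp2e1, Cyp7a1, Igfbp2, Fasn, Elovl6, Srebf1, Acly, Acaca, Pklr, Ptprc, Gpam, Mlxipl and Actb. Fgf21 was past it in 9 of 11 settings, Cdh5 in 7 of 10 and Sds in 4 of 11. Thinning to 200 UMIs in place of 500 lowered the shares of barcodes with a UMI, for Igfbp1 from 10.1% to 4.19% fed and from 80.4% to 51.0% at 24 h. No paired analysis was possible because each time point has 1 library. Depth limits genes with few UMIs, such as Fgf21, Cdh5 and Ptprc.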
